A study of Homo sapiens with 6 samples.

Results

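Clusterin, the product of CLU, was read as 1 gene of the 25336 in a deposited RNA-seq count table. The gene was chosen by its large difference between the libraries labelled control and those labelled pristimerin, so its counts, levels, fold and ranks in that contrast are given as a description, with no test. All 6 libraries came from THP-1 cells, a human monocytic leukaemia line grown in culture, with 3 libraries labelled control and 3 labelled pristimerin, a plant triterpenoid. The labels name no other agent, no genetic change, no dose and no exposure time, and do not say what the control cells received. The labels number the libraries of a group as separate biosamples. They do not say whether the 3 libraries of a group came from separate cultures, so the spread between libraries may be technical. Which group is which rests on the deposited treatment labels alone. No gene was targeted that could check them, and exchanged labels would reverse the sign of every difference given here. The sample titles name no treatment. Titles of the libraries labelled control start with A. Titles of the libraries labelled pristimerin start with THP-1, the bare name of the cell line, which could also be read as untreated cells. Whether the titles and the treatment labels match was not tested. The stress-inducible genes HMOX1 and HSPA1A were, like CLU, lower in the libraries labelled pristimerin. JUN was lower there too, whereas FOS and EGR1 were higher. These genes were picked with their values known and do not check the labels.

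Clusterin, also called apolipoprotein J, is a glycoprotein that is folded and cut into a disulphide-linked pair of chains in the secretory pathway and then released from the cell. Outside the cell it acts as a chaperone that holds misfolded proteins in solution, and it blocks assembly of the terminal complement complex. Forms that stay inside cells have been described as binding partners of proteins such as BAX and Ku70. Transcription of CLU is known to respond to proteotoxic and oxidative stress, with heat shock factor and AP-1 among the factors described at its promoter.

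CLU (ENSG00000120885, protein-coding) lies on the minus strand of hg38 chromosome 8 from 27596917 to 27614700, a span of 17784 bases, in the coordinates of the deposited table. No other gene of the table overlapped it. GENCODE release 29 lists 17 transcripts of CLU, 14 of them protein-coding, and places a microRNA gene, MIR6843, on the same strand within its span, which was not analysed here. The counts were given per gene, so the share of each transcript was not measured.

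In the control libraries CLU had 786, 840 and 618 counts for replicates 1, 2 and 3. In the pristimerin libraries it had 19, 16 and 13 counts. Every control library stood far above every pristimerin library, and the groups did not overlap. Totals per library were 19057219 to 30568593 counts, so 3 counts, the limit that a count of 0 allows, correspond to 0.0981 to 0.157 CPM. CPM is the count divided by the library total, here scaled by the TMM method and expressed at a common library size. On this scale CLU measured 28.8, 29.25 and 31.9 CPM in control and 0.633, 0.618 and 0.551 CPM in pristimerin libraries. A low level of CLU was thus still counted in each pristimerin library, above that limit.

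**Figure D1:**
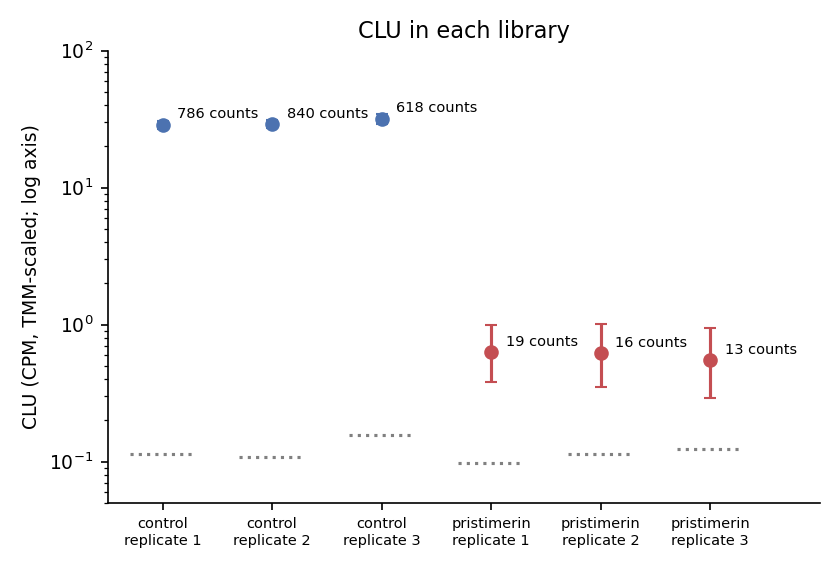
CLU in each of the 6 libraries, in TMM-scaled CPM on a log axis. Bars are exact Poisson 95% intervals of the count, which cover counting error only, and dotted lines mark the level of 3 counts; the control libraries sit between 28.8 and 31.9 CPM and the pristimerin libraries between 0.551 and 0.633 CPM.

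The group means of CLU were 30.00 ± 1.67 CPM in control and 0.601 ± 0.044 CPM in pristimerin libraries (SD, n = 3 each). The pristimerin mean was 2.00% of the control mean. The edgeR fit across all genes tested gave CLU a log2 fold change of -5.62 (SE 0.14, pristimerin relative to control). The lowest control library was 45.6-fold above the highest pristimerin library. The summed counts, 2244 against 48, gave a control to pristimerin ratio of 49.3 once scaled for library size. Its exact binomial 95% interval was 37.1 to 67.1, for counting error only. In a bulk sample, fewer cells with CLU transcripts and fewer transcripts per cell cannot be told apart.

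Replicates varied little in CLU. The coefficient of variation among control libraries was 5.57%, against 3.66% from counting alone at the mean count. Across 10498 genes whose control mean reached 5 CPM the median coefficient of variation was 6.45%, and 40.3% of them varied less than CLU. Among pristimerin libraries the coefficient of variation of CLU was 7.24%, below the 25% that counting alone gives at a mean of 16 counts, so the closeness of these 3 values says little about their precision. The exact Poisson 95% intervals of the 3 counts ran from 11.4 to 29.7, from 9.145 to 25.98 and from 6.92 to 22.2.

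By level, CLU was a middling transcript in control and a rare one in pristimerin libraries. Its deposited FPKM, which divides the count by gene length and library total, was 4.71, 4.79 and 5.16 in control and 0.0989, 0.0957 and 0.0850 in pristimerin libraries. This put CLU at ranks 6894, 6827 and 6536 of 25336 genes in control replicates 1, 2 and 3. In the pristimerin libraries its ranks were 16484, 16446 and 16743. Of the genes with at least 1 count, 68.2% to 69.0% lay below CLU in a control library and 19.6% to 23.2% in a pristimerin library. Among the 16205 protein-coding genes the mean FPKM of CLU ranked 6517 in control and 12334 in pristimerin libraries. The counts and FPKM together imply a length of 6285 bases for CLU, near the 6616 bases that all its exons in GENCODE release 29 cover together. Its longest protein-coding transcript there has 3080 bases, so its FPKM and these ranks rest on the longer length.

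Genes at the same level as CLU in control did not share its place in pristimerin libraries. The next protein-coding genes above it in the control mean were MFN1 (4.887 FPKM), TIMM22 (4.89) and GNPDA2 (4.891), against 4.886 for CLU, and the next below were PRR3 (4.886), ZNF579 (4.885) and AMMECR1 (4.88). MFN1 encodes a mitochondrial fusion protein and TIMM22 a subunit of the mitochondrial inner membrane translocase. In the pristimerin mean these 6 genes measured 4.186 to 5.515 FPKM and CLU 0.0932. Of the 6, AMMECR1 alone passed the test (log2 fold change 0.25, edgeR adjusted p = 0.049), and its groups overlapped. Among all 15305 genes tested, 29.6% passed. In the pristimerin mean CLU stood beside the antiviral enzyme OAS1 (0.0933 FPKM), WDR86 (0.0935) and SLAMF1 (0.0935) above it, and the lysyl oxidase LOXL2, DENND2C (0.0931 each) and PLEKHA7 (0.0925) below it.

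By fold, CLU had the fourth largest decrease of 15305 genes tested. HTRA3 and HMOX1 were among the 3 genes that ranked above it in fitted fold change. HTRA3, a serine protease, had 29, 40 and 48 counts in control and 0, 0 and 1 in pristimerin libraries. Scaled for library size, its ratio was 123.4 with a counting interval of 21.7 to 4916. The order of CLU relative to HTRA3 is therefore not fixed by these counts. HMOX1 (ENSG00000100292), the haem oxygenase that breaks down haem, had 1585, 1955 and 1871 counts in control and 34, 18 and 31 in pristimerin libraries.

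In the set of 10413 tested genes that averaged 5 CPM or more over the 6 libraries, CLU had the second largest absolute change, after HMOX1 (log2 fold change -6.14, SE 0.21). It kept this place under each alternative setting tried. The next 3 genes in that order were the cytokine receptor IL31RA (2.84, SE 0.07), the transcription factor MSC (-2.80, SE 0.19) and the sterol reductase DHCR7 (2.70, SE 0.09). Reads of MSC may be mixed with those of its overlapping antisense gene, MSC-AS1 (means of 6.056 CPM for MSC and 6.135 CPM for MSC-AS1 over the 6 libraries). Of the 10498 genes with a control mean of 5 CPM or more, 81 were at least 2-fold lower and 54 at least 2-fold higher, and 11 were at least 4-fold lower and 5 at least 4-fold higher. CLU, HMOX1, HGD and ZNF366 were at least 8-fold lower, and CLU and HMOX1 alone at least 16-fold and 32-fold lower. This set admits genes that are low in pristimerin libraries but not genes that are low in control, so its lower and higher counts at large folds cannot be set against each other. HGD, an enzyme of tyrosine breakdown, and ZNF366 were named after their values were seen.

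**Figure D2:**
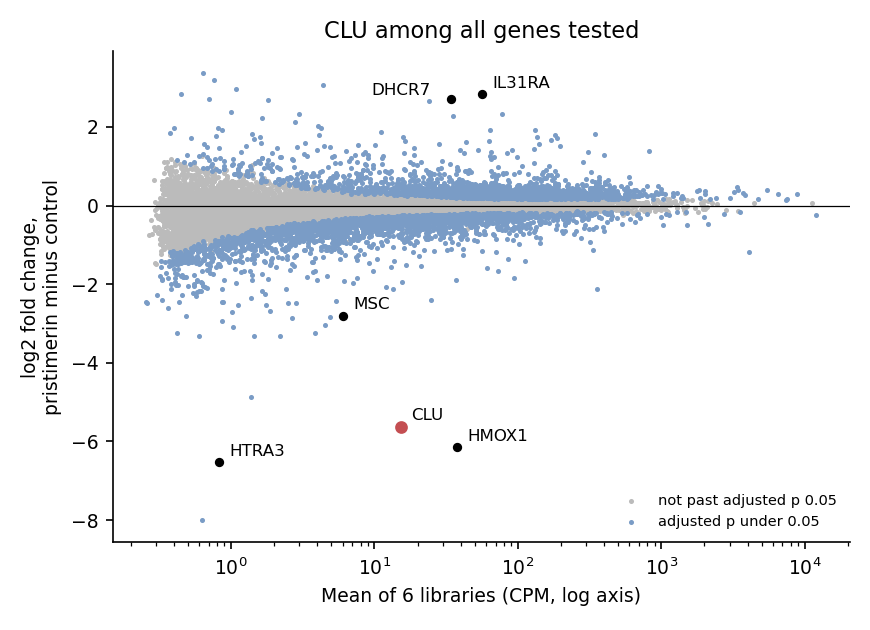
The log2 fold change (pristimerin minus control) of 15305 genes tested against their mean CPM over the 6 libraries, on a log axis. CLU (red) and HMOX1 stand at -5.62 and -6.14, below genes of similar abundance, while HTRA3 lies lower at a mean of 0.830 CPM.

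Likeness to CLU was measured over the 6 libraries for the 10412 other genes of that abundance. It is a description, since it follows mostly the difference between 2 groups. By Pearson r of log2 CPM, 68 genes had an r above 0.99. The 8 highest were the homeobox gene PKNOX1 (r = 0.9996), the lysosomal protease CTSB (0.9987), PIR, a nuclear iron-binding protein (0.9983), the lysosomal protein PLBD2 (0.998), GPRASP2 (0.998), TMEM150B (0.9979), the transcriptional inhibitor ID2 (0.9975) and the pentose phosphate enzyme TALDO1 (0.9973). Their log2 fold changes ran from -0.39 for ID2 to -2.40 for PIR, so they shared the shape of CLU and not its size. PKNOX1 measured 56.1, 55.3 and 57.8 CPM in control and 26.49, 25.88 and 25.95 CPM in pristimerin libraries. PLBD2 overlaps SLC8B1 on the opposite strand, and GPRASP2 a read-through gene on the same strand, so their values are uncertain.

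By Euclidean distance of log2 CPM centred per gene, which takes in the size of the change, HMOX1 was nearest to CLU (distance 1.09). The next 4, MSC (3.34), PIR (3.78), PANX2, a pannexin (3.79), and the ferritin heavy chain FTH1 (4.13), were more than 3 times as far. PIR was the gene found by both measures. HMOX1 measured 58.15, 68.07 and 96.63 CPM in control and 1.133, 0.695 and 1.315 CPM in pristimerin libraries. The control values of HMOX1 spread more widely (74.3 ± 20.0 CPM, SD, n = 3) than those of CLU. Reads of FTH1 can be shared with its processed pseudogenes.

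**Figure D3:**
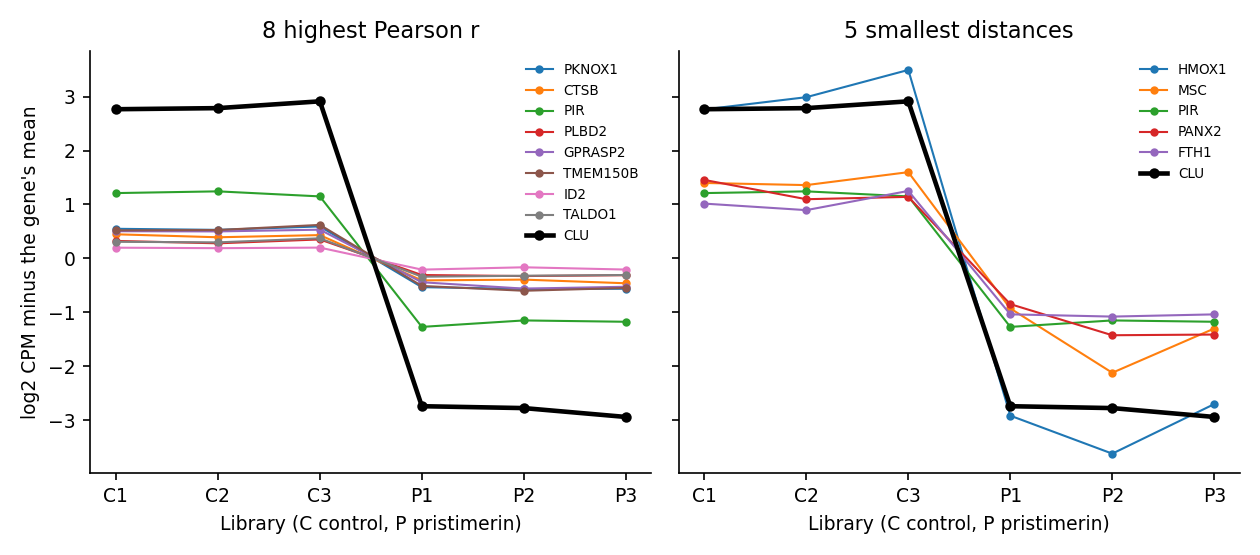
The log2 CPM of each gene minus its mean over the 6 libraries, for the 8 genes with the highest Pearson r to CLU (left) and the 5 with the smallest distance (right); lines join the libraries of 1 gene and carry no order within a group. CLU (black) and HMOX1 span the widest ranges, and the other genes smaller ones. The plotted log2 CPM has no prior count, unlike that used for r and distance.

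Of all 15305 genes tested, 14.5% were higher and 15.1% lower in pristimerin libraries at an adjusted p under 0.05 (29.6% in either direction; edgeR's quasi-likelihood test with Benjamini-Hochberg adjustment), and the median log2 fold change was -0.013. The calls were 2216 higher and 2313 lower, against 1389 and 3221 with library totals and 1523 and 3052 with upper-quartile scaling. The shares are the background for the gene lists that follow. No tested member of any of them was as much as 16-fold lower, and CLU itself was in none.

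Genes for factors described as acting on CLU transcription did not fall as a group. Of 20 tested, 8 were higher, 2 lower and 10 not called, against 14.5% higher and 15.1% lower among all genes tested. The share called higher was thus above the background in the main fit. The log2 fold changes of the 20 had a median of 0.10. The one large decrease was that of JUN, an AP-1 subunit, at 25.43, 18.45 and 21.38 CPM in control and 5.231, 4.635 and 5.216 CPM in pristimerin libraries (log2 fold change -2.11, SE 0.13, edgeR adjusted p = 1.5e-09). All 3 control values of JUN lay above all 3 pristimerin values. The AP-1 partner FOS moved the other way, from 104.8 ± 10.3 to 169.3 ± 12.0 CPM (0.69, SE 0.08; SD, n = 3 each), and so did the growth-response factor EGR1, from 4.19 ± 0.23 to 9.64 ± 1.97 CPM (1.2, SE 0.14). JUND (0.48), whose groups overlapped, was called higher in edgeR but not in DESeq2 (adjusted p = 0.12) or on the log2 FPKM scale (0.12). HSF1, the heat shock factor, measured 126.8 ± 20.05 and 129.9 ± 3.8 CPM (0.03, SE 0.09), and overlaps DGAT1 on the opposite strand. MYC, described as a repressor of CLU, measured 332.5 ± 17.1 and 323.8 ± 6.7 CPM (-0.04, SE 0.06), and STAT3 138.9 ± 1.6 and 144.5 ± 3.4 CPM (0.06, SE 0.06). None of these 3 passed the test, and transcript levels do not measure the activity of the factors. On the log2 FPKM scale 3 members of this list were called higher, and without pristimerin replicate 3 it had 1 lower member.

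Heat shock inducible chaperones were mostly lower. Of 19 tested, 16 were lower, 0 higher and 3 not called (median -0.44; 15 or 16 lower in 4 of the 6 fits that left out 1 library, and 14 without control replicate 3 or pristimerin replicate 1). HSPA1A, an inducible HSP70, measured 151.6, 118.8 and 171.1 CPM in control and 42.1, 42.6 and 38.4 CPM in pristimerin libraries (-1.84, SE 0.10, edgeR adjusted p = 6.6e-10), with no overlap between the groups. Reads of HSPA1A and its near-identical copy HSPA1B may have been divided arbitrarily. The small heat shock protein HSPB1, like clusterin a chaperone that works without ATP, fell from 345.1 ± 49.0 to 242.9 ± 13.7 CPM (-0.51, SE 0.08). The mitochondrial chaperonin HSPD1 was at 1121 ± 37 and 1125 ± 41 CPM and did not pass the test (edgeR adjusted p = 0.96). The lowest member was HSPA1A. HSPA6, another inducible HSP70, was not on the list and is named after its values were seen: it had 82, 66 and 52 counts in control and 13, 5 and 3 in pristimerin libraries (-3.32, SE 0.32, edgeR adjusted p = 8.2e-07).

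The other genes for secreted chaperones were few in these cells. Of 9 entries, 7 were in the table and 4 were tested; 1 was higher, 0 lower and 3 not called, with a median of -0.15. The higher one was DNAJB11, a co-chaperone of the endoplasmic reticulum that can be secreted, from 52.8 ± 3.1 to 64.05 ± 1.30 CPM (0.28, SE 0.07), a call lost on the log2(FPKM + 1) scale (adjusted p = 0.062 in limma's test). DNAJB11 overlaps TBCCD1 on the opposite strand. A2M, the plasma protease inhibitor alpha-2-macroglobulin, had a mean of 0.0959 CPM over the 6 libraries and was not tested.

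Apolipoproteins, the lipid carriers whose name clusterin shares, went both ways. Of 9 tested, 1 was higher, 3 lower and 5 not called (median -0.28). APOL1, a trypanolytic serum protein, measured 20.7, 19.7 and 19.2 CPM in control and 7.496, 8.072 and 6.912 CPM in pristimerin libraries (-1.40, SE 0.10, edgeR adjusted p = 1.6e-08). APOL2 fell from 15.55 ± 0.79 to 8.53 ± 1.15 CPM. APOC1, found on triglyceride-rich particles, measured 4.40, 5.22 and 4.65 CPM in control and 12.2, 10.2 and 13.4 CPM in pristimerin libraries (1.32, SE 0.12, edgeR adjusted p = 5.8e-07). The groups overlapped for neither APOL1 nor APOC1. APOE, the other main chaperone-like apolipoprotein, was low at 0.953 ± 0.288 and 0.743 ± 0.077 CPM (-0.39, SE 0.30) and did not pass the test.

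Of 7 tested genes for receptors described for clusterin and proteins linked to them, 1 was higher, 1 lower and 5 not called, with a median of -0.03, a share near the background. The list held TYROBP and LRPAP1, which are not receptors themselves, and its lower member was TYROBP. LRP8, a receptor that binds reelin and clusterin, was at 139.9 ± 5.3 and 139.6 ± 3.2 CPM (edgeR adjusted p = 0.97) and did not pass the test. The phagocyte receptor TREM2 was low (1.65 ± 0.30 and 1.89 ± 0.59 CPM; 0.18, SE 0.24) and did not pass the test. Its signalling adaptor TYROBP fell by 0.49 on the log2 scale, a call lost without control replicate 3 (-0.37, adjusted p = 0.059). LRP2, or megalin, and PLXNA4 were below the filter.

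Of 10 genes for intracellular partners tested, 2 were higher, 2 lower and 6 not called (median -0.08). The Ku subunits XRCC6 and XRCC5 rose by log2 fold changes of 0.26 (SE 0.06) and 0.29 (SE 0.06). The receptor kinase TGFBR1 fell by 0.51 (SE 0.07) and the amyloid precursor APP by 0.27 (SE 0.06) on the log2 scale. BAX, the pore-forming cell death protein, measured 101.1 ± 4.2 and 95.3 ± 10.2 CPM (-0.08, SE 0.08) and did not pass the test. Of 15 genes for folding in the endoplasmic reticulum and furin-type cleavage, through which clusterin matures, 1 was higher, 4 lower and 10 not called (median -0.11), and the number lower moved from 1 (without control replicate 1 or pristimerin replicate 3) to 8 (library totals). The lower ones included the proprotein convertases PCSK5 (1.24 ± 0.14 and 0.528 ± 0.091 CPM; named after its values were seen) and PCSK4 (-0.49, SE 0.13). The higher one was the disulphide oxidase ERO1A, from 65.15 ± 5.10 to 89.5 ± 7.1 CPM (0.46, SE 0.08). FURIN (56.4 ± 6.8 and 51.7 ± 2.1 CPM) and the lectin chaperone CANX (1167 ± 63 and 1240 ± 60 CPM) did not pass the test, although FURIN did without control replicate 2 (-0.22, adjusted p = 0.029).

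The deposited annotation places CLU in the KEGG pathway of complement and coagulation. Of the 61 other genes it places there, 28 were tested, and 6 were higher, 11 lower and 11 not called (median -0.32); leaving out control replicate 3 or pristimerin replicate 1 left 7 lower, and 2 were higher on log2(FPKM + 1). Thrombomodulin, THBD, rose from 135.8 ± 11.7 to 221.8 ± 12.2 CPM (0.71, SE 0.07), and SERPINE2, a thrombin inhibitor, from 4.16 ± 0.43 to 9.205 ± 0.558 CPM (1.13, SE 0.12). The complement receptor subunit ITGAM fell from 9.03 ± 0.01 to 5.49 ± 0.47 CPM (-0.71, SE 0.11). In the shorter list of terminal complement and its regulators 7 were tested, and 1 was higher, 3 lower and 3 not called (median -0.04; 1 lower without control replicate 2 or 3 or pristimerin replicate 1). Of its terminal components, C5 measured 46.8 ± 1.7 and 36.3 ± 1.8 CPM (-0.37, SE 0.07) and overlaps the more highly counted CNTRL on the opposite strand. CD59, the membrane inhibitor of the same complex that clusterin blocks, was at 8.145 ± 0.311 and 7.91 ± 0.16 CPM (-0.04, SE 0.10) and did not pass the test.

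**Figure D4:**
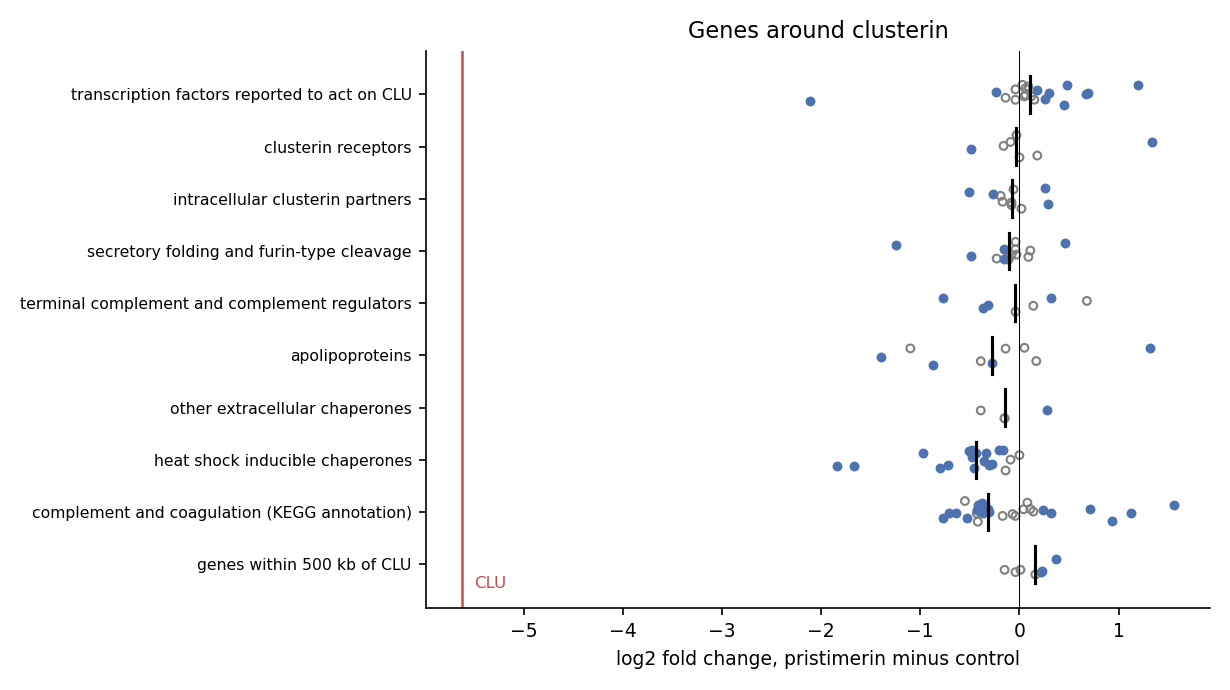
The log2 fold change (pristimerin minus control) of the tested genes of each list, filled where the adjusted p was under 0.05 in edgeR and open otherwise; black bars are list medians. The red line marks CLU at -5.62, and the lowest point of any list is JUN at -2.11.

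Position on the chromosome was not used to choose CLU. The table held 13 other genes within 500 kb of it, of which 7 were tested: 3 were higher, 0 lower and 4 not called, with a median of 0.16. The nearest on the higher-coordinate side was the scavenger receptor gene SCARA3, 19168 bases away, at 0.268 ± 0.168 and 0.284 ± 0.123 CPM and not tested. The nearest on the other side was the epoxide hydrolase EPHX2, 51353 bases away, at 0.963 ± 0.138 and 0.938 ± 0.281 CPM (-0.04, SE 0.29). PTK2B, a calcium-responsive tyrosine kinase 137526 bases away, measured 249.7 ± 17.5 and 279.3 ± 7.7 CPM (0.16, SE 0.06). It was not called in edgeR (adjusted p = 0.060) but was in DESeq2 (0.044). The higher neighbours were the cohesin acetyltransferase ESCO2 (0.37, SE 0.08, adjusted p = 0.0030), CCDC25 (0.23, SE 0.07) and the mitotic kinase PBK (0.22, SE 0.07). ESCO2 overlaps both CCDC25 and PBK on the opposite strand at a similar level, so reads could be mixed between them. Library totals or upper-quartile scaling left 1 higher neighbour, log2 FPKM none, and omission of control replicate 3 left 1. With library totals, upper-quartile scaling or log2 FPKM the lowest neighbour, ELP3 (-0.15, SE 0.07), was called lower.

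**Figure D5:**
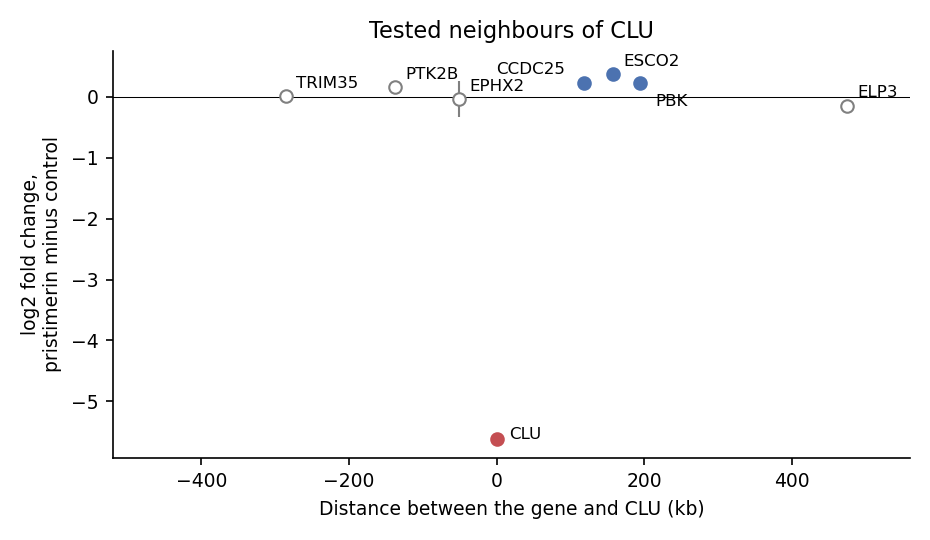
The log2 fold change (pristimerin minus control, bars are SE) of the 7 tested genes within 500 kb of CLU against their distance from it in kb, filled where the adjusted p was under 0.05. CLU is at 0 kb and -5.62, and its neighbours lie between -0.15 and 0.37.

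The labelled cell type was checked against markers. All 13 markers of monocytic leukaemia cells were counted; among them lysozyme, LYZ, had 1431 CPM in control and 1589 CPM in pristimerin libraries, whereas the group means of CD14 (0.452 and 0.875 CPM) and CD68 (0.495 and 0.348 CPM) were low. Of the 13, ITGAM (-0.71), FCGR1A (-0.33) and ELANE (-0.21) were called lower, ITGB2 (0.24) was called higher, and the other 9 did not pass the test. The summed level of these markers was 3087 to 3323 CPM in control and 3184 to 3314 CPM in pristimerin libraries. Megakaryocytes and platelets are rich in clusterin. The sum of their 9 markers was 6.09 to 7.59 CPM in control and 4.98 to 7.21 CPM in pristimerin libraries. PPBP had 0, 1 and 0 counts in control and 0 in each pristimerin library, and 3 other markers were at 0 throughout or not in the table. Of the 4 tested, 1 was called lower and 0 higher. Erythroid markers summed to at most 0.155 CPM, epithelial and fibroblast markers to at most 0.220 CPM, and B and T cell markers to at most 5.64 CPM in any library. Markers of differentiated macrophages summed to 5.19 to 7.08 CPM in control and 8.03 to 10.3 CPM in pristimerin libraries, mostly MARCO, which was called higher. The part of these markers, monocytic ones included, in the CLU difference was not tested.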

How the data were processed

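RNA of THP-1 cells was poly(A)-selected and made into strand-specific libraries, per the labels' protocols, and the genome build was hg38, per the submitters' processing notes. Neither aligner nor counter, nor whether counting used strand, is stated in the sources used here. The authors deposited unnormalised counts and FPKM values per gene. The third table repeated the same deposited counts and FPKM values exactly.

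Counts were tested with edgeR 4.0.16 (R 4.3.3; filterByExpr with minimum count 10 and minimum total 15, TMM, quasi-likelihood F test on group), with Benjamini-Hochberg adjustment over 15305 genes and a threshold of 0.05; 10031 genes were left out. The procedure was checked on simulated data. Each SE was derived from the log2 fold change and its F statistic (size over root F). CPM values are TMM-scaled, and log2 CPM used a prior count of 2. Alternatives were DESeq2 1.42.0, limma 3.58.1 on log2 FPKM (pseudocount 1 or 0.1; genes averaging 0.1 FPKM or more), other scalings, no filter, the replicate block and leaving out each library.

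CLU and the lists were chosen with earlier results of these data known, and the KEGG list was taken from the deposited annotation after the files were seen. Genes were named by rule: the anchors set for each list, then at most 3 more of its called genes, taken by size of change among those averaging 5 CPM or more (not all are described), neighbours within 500 kb, the genes most like CLU, those next to it by level, and the 5 largest changes above 5 CPM. HSPD1, LRP2, PLXNA4, HTRA3 and single cell-type markers were named outside that rule. Some genes of the lists and of the largest decreases are not reported here. Sequences of CLU were not used here.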

Additional observations from a re-analysis of the deposited data

How the results depend on the processing

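The decrease of CLU kept its direction in all 14 alternative settings, with a log2 fold change of -5.55 to -5.69 outside the FPKM scale. There the pseudocount outweighs the low pristimerin values, and it was -4.69 on log2(FPKM + 0.1) and -2.43 on log2(FPKM + 1). Its rank by decrease was 2 with either FPKM setting, and 8 with no low-count filter, which admits genes of few counts. With 1 library left out the rank was 4 to 6. Genes called higher numbered 1389 with library totals, 1084 on log2(FPKM + 0.1) and 1081 on log2(FPKM + 1), and genes called lower 1534 to 2329 when 1 library was left out, lowest without control replicate 3; the causes were not tested. Same-numbered libraries deviated together by correlations of 0.10, 0.14 and 0.04, and differently numbered ones by -0.11 to 0.01, below each of these. The labels do not pair the libraries, so the main fit used group alone, and whether the numbers pair them is not settled. The replicate block gave CLU -5.62 and raised the calls to 3150 higher and 2948 lower, with ELP3 among the lower (-0.15, adjusted p = 0.029 in edgeR). CLU had 13 to 19 counts in pristimerin libraries, at totals of 24323627 to 30568593 counts, so counting error limits the precision of its level there.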
